A study of Mus musculus with 24 samples.

Results

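The endothelium of the loaded plantaris was followed through 10 genes, picked by symbol: the junction and surface genes Pecam1, Cdh5 and Esam, the VEGF receptors Kdr and Flt1, the angiopoietin receptor Tek and its relative Tie1, and the growth factors Vegfa, Vegfb and Angpt1. They are 10 of the 19937 genes that the arrays measured with at least 1 probe set of a single symbol, and all 10 were among the 14499 genes that passed the filter on low intensity and were tested. Each of the 10 was read by 1 probe set. The muscle, a plantar flexor of the mouse hindlimb, came from 4 groups of 6 biological replicates with 1 array each: untreated wildtype, overloaded wildtype, untreated Mstn-/- and overloaded Mstn-/- mice. All mice were 3 months old when the overload began. In the overloaded groups the plantaris had been loaded on both sides by taking out the soleus and a large part of the gastrocnemius under pentobarbitone (50 mg/kg), whereas control mice were left without surgery, so operation and load cannot be told apart. Mstn encodes myostatin, a secreted inhibitor of muscle growth. The labels do not say how the Mstn allele was made, which strain and sex the mice were, or how long the overload lasted. Muscle of 1 side per mouse was used.

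Endothelial cells line the capillaries that run along muscle fibres. VEGF-A binds the kinase receptor Kdr, which passes on most of its growth signal, and Flt1, which binds the ligand tightly but signals weakly and can act as a decoy, while VEGF-B binds Flt1 and not Kdr. Angiopoietin-1 from cells around the vessel activates Tek and keeps vessels stable and quiet, angiopoietin-2 can oppose it there, and Tie1 modulates Tek. In muscle much of the VEGF-A is made by the fibres themselves.

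Values are log2 intensities of the authors' normalized signals, a difference is a difference of group means on that scale with its standard error, and a fold is the ratio of group geometric means. A gene was called when its adjusted p in limma, over all 14499 genes, was below 0.05. Array medians lay between 138.9 and 146.7 on the linear intensity scale, arrays correlated with the others of their group at a mean r between 0.978 and 0.994, and the number of arrays limits the precision (median standard error of the overload difference in wildtype 0.067). Mstn, the gene knocked out per the labels, read from 10.10 to 10.40 in untreated wildtype and from 8.53 to 9.33 in untreated Mstn-/- arrays. The groups did not overlap, and the Mstn-/- mean was 2.51-fold lower. Under overload the ranges of Mstn were 8.19 to 8.63 in wildtype and 7.87 to 8.66 in Mstn-/-, so the gene separates the genotypes in untreated muscle only. Where its probes lie relative to the altered part of the allele is not known here. The skeletal muscle actin Acta1 averaged close to 14 in all groups, as the tissue label says. Endothelium is 1 of many cell types in this tissue, and all 7 of its genes among the 10 were above the filter level of 6.63 in every group mean.

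Promoter windows from RefSeq (assembly GRCm38.p6, 250 bases before to 50 after an annotated start) were found for 6 of the 10 genes: Tek, Tie1, Kdr, Flt1, Vegfa and Vegfb. Those of 3 receptors are shown because with overload in wildtype Flt1 fell, Tie1 rose and Kdr was not called, although all are endothelial receptor genes. In Mstn-/- Flt1 fell, and Kdr and Tie1 both rose. ETS proteins are the transcription factor family most widely tied to endothelial genes, and the letters AGGAAG and CCGGAA, searched on both strands, are common ETS core sequences. Capitals mark the matches, and each window is written 5′ to 3′ along the gene, which lies on the minus strand in all 3 cases.

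Flt1, chr5:147725962-147726261, minus strand: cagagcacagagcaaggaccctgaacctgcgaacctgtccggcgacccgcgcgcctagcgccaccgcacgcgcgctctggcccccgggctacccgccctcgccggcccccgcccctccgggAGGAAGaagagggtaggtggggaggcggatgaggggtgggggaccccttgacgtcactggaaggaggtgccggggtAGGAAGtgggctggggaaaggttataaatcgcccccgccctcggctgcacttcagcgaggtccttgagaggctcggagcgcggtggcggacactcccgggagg

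Kdr, chr5:75978406-75978705, minus strand: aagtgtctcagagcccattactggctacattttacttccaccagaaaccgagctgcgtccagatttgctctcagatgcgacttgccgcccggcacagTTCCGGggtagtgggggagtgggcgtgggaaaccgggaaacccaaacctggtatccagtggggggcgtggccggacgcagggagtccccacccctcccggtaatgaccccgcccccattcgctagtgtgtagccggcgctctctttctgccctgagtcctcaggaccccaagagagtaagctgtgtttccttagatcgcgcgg

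Tie1, chr4:118489800-118490099, minus strand: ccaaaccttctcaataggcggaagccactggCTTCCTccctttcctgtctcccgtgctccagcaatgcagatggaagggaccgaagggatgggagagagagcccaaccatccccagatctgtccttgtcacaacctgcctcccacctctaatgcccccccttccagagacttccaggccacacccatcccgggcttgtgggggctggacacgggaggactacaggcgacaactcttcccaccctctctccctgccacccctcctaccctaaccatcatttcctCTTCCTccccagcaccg

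The Flt1 window holds AGGAAG at 2 places on its own strand, starting at positions -129 and -53 counted from the annotated start. Kdr has 1 CCGGAA, on the opposite strand and so printed as TTCCGG, at -153. In Tie1 the 2 AGGAAG matches are both on the opposite strand and printed as CTTCCT, at -219 and 33. Over all 32851 promoter windows in the table, 35.4% hold AGGAAG and 14.9% hold CCGGAA on either strand, so such matches are frequent. The windows differ more in base composition: 70.7% G or C with 29 CpG in Flt1, 60.7% with 19 in Kdr and 60.3% with 7 in Tie1, against a median of 52.7% and 7 CpG over all windows. The letters GATAAG, searched on both strands as a GATA core, were found in the Tek window and are in 7.44% of all windows. ACGTG, the core that hypoxia-inducible factors bind, was found in 1 of the 2 Vegfa windows of the table, on the opposite strand at -211 from the annotated start nearer the 3′ end of the gene, and not in the other window. The window with the match lies wholly inside the annotated gene, not upstream of it. ACGTG is in 19.6% of all windows. A further core, TGTTTAC of forkhead proteins, was in none of the 6 genes' windows and is in 3.65% of all.

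In wildtype muscle the endothelial junction genes rose with overload, and Vegfa, Vegfb and the receptor Flt1 fell. Of the 10 genes 5 rose and 3 fell, against 65.9% of all tested genes called (30.3% higher, 35.6% lower), so a call as such is common in this comparison. Tie1 and Tek rose beside Pecam1, Cdh5 and Esam, while Kdr and Angpt1 did not pass. The groups did not overlap for 6 of the 10 genes, as for 43.0% of all tested genes. In Mstn-/- muscle 6 rose and 3 fell, against 60.6% called overall (27.1% higher, 33.5% lower), and 8 did not overlap, against 39.9%. Pecam1, Cdh5, Esam and Tie1 rose there too, joined by Kdr and Angpt1, and the 3 falls were again Vegfa, Vegfb and Flt1. Tek did not pass. The median difference over the 10 genes was 0.09 in wildtype and 0.47 in Mstn-/-, beside -0.06 over all tested genes in both.

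**Figure D1:**
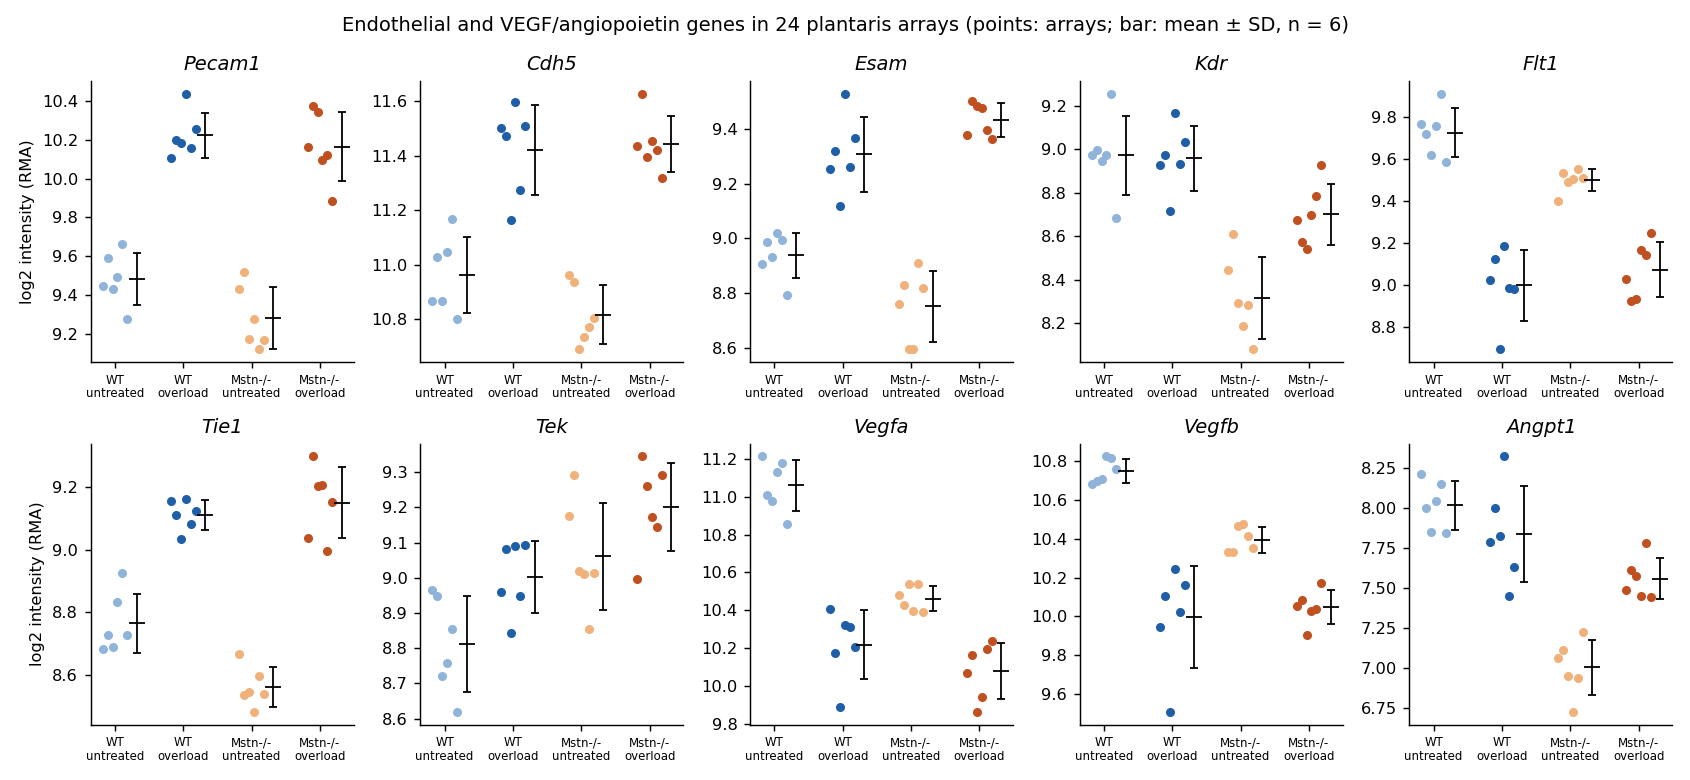
Log2 intensity of each of the 10 genes (vertical axes, own scale per gene) in the 24 arrays by group (horizontal axis). Points are arrays and black bars the mean ± SD of 6 arrays. Pecam1, Esam and Tie1 lie higher in all overloaded than in all untreated arrays of their genotype, and Vegfa, Vegfb and Flt1 lie lower. Untreated Mstn-/- has the lowest mean for Kdr, Angpt1, Pecam1, Cdh5, Esam and Tie1.

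Pecam1, an adhesion molecule at contacts between endothelial cells that is also carried by platelets and some leukocytes, moved most among the junction genes. Its log2 intensity ran from 9.27 through a median of 9.47 to 9.66 in untreated wildtype and from 10.11 through 10.19 to 10.44 under overload. In Mstn-/- muscle it ran from 9.12 through 9.22 to 9.52 untreated and from 9.89 through 10.14 to 10.38 under overload. Every overloaded array was thus above every untreated one in both genotypes. Overload raised Pecam1 by 0.74 ± 0.08 in wildtype (1.67-fold, adjusted p = 1.2e-08). The rise in Mstn-/- was 0.89 ± 0.08 (1.85-fold, adjusted p = 1.2e-09). In whole muscle, fewer cells of a type and less RNA per cell cannot be told apart, and this holds in both directions for every value given here. Markers of other Pecam1-bearing cells moved as well: all 10 macrophage markers rose in both genotypes, and their summed intensity lay between 2272 and 3039 in untreated and between 11192 and 16250 in overloaded wildtype arrays. In Mstn-/- it lay between 3410 and 4281 and between 7826 and 14540. Among all tested genes, 30.3% rose in wildtype and 27.1% in Mstn-/-. Of 4 platelet genes tested, Pf4, a chemokine of platelet granules also made by some macrophages, rose 3.63-fold in wildtype and 2.24-fold in Mstn-/-. The platelet integrin subunit Itga2b (0.03 ± 0.07 and -0.12 ± 0.07) and the platelet glycoprotein Gp9 (-0.08 ± 0.10 and 0.11 ± 0.10) did not pass. The other member, Ppbp, did not pass either, but it varied widely. Its mean in Mstn-/- was 8.09 (SD 0.42) untreated and 8.85 (SD 1.42) under overload. In wildtype it was 7.43 (SD 0.28) and 7.66 (SD 0.37). Between the overloaded genotypes 1 of the 4 platelet genes was called higher in Mstn-/- and 1 lower, with differences from -0.46 to 1.19. The part of these cells in the Pecam1 values was not tested.

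Cdh5 (VE-cadherin, the adhesion protein of endothelial junctions) is the most specific to endothelium of the 3 junction genes. It spanned 10.80 to 11.17 around a median of 10.95 in untreated wildtype and 11.17 to 11.60 around 11.49 under overload, where 1 overloaded array lay at the level of the highest untreated one. The Mstn-/- groups did not overlap, at 10.69 to 10.96 (median 10.79) and 11.32 to 11.63 (median 11.43). Overload raised it by 0.46 ± 0.07 (1.37-fold, adjusted p = 5.1e-06) and by 0.63 ± 0.07 (1.54-fold, adjusted p = 6.3e-08). Esam, another junction adhesion molecule of endothelium, had ranges of 8.79 to 9.02 (median 8.96) and 9.12 to 9.53 (median 9.29) in wildtype. Its Mstn-/- ranges, 8.60 to 8.91 (median 8.79) and 9.36 to 9.50 (median 9.44), were further apart. The rise of Esam was 0.37 ± 0.06 in wildtype (1.29-fold, adjusted p = 1.1e-05) and 0.68 ± 0.06 in Mstn-/- (1.60-fold, adjusted p = 9.8e-10). The response was thus larger in Mstn-/- by 0.31 ± 0.09 for Esam (adjusted p = 0.016). For Cdh5 and Pecam1 the same difference did not pass, at 0.17 (95% interval -0.05 to 0.38, adjusted p = 0.30) and 0.14 (-0.10 to 0.38, adjusted p = 0.46).

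**Figure D2:**
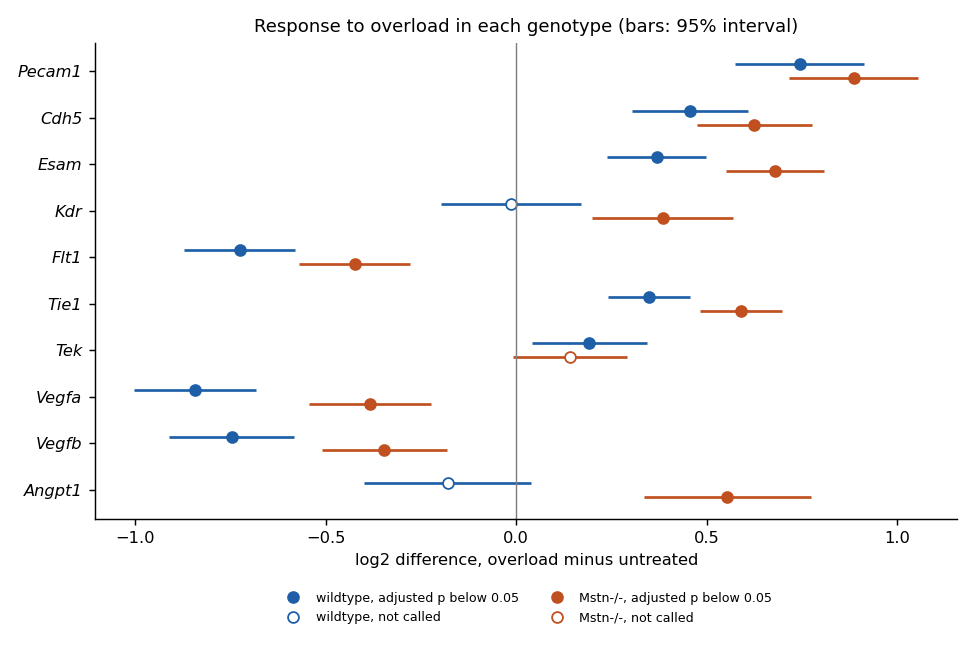
Log2 difference between overloaded and untreated muscle (horizontal axis) for each gene in wildtype (blue) and Mstn-/- (orange). Points are estimates from 6 arrays a group, bars their 95% interval, and open points did not pass an adjusted p of 0.05. The Mstn-/- point lies to the right of the wildtype point for 9 genes, with Tek as the exception, and Kdr and Angpt1 have filled points to the right of 0 in Mstn-/- only.

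Both VEGF receptor genes are made by the endothelial cells that carry Cdh5, yet neither followed it in wildtype. Flt1 fell. Its intensities ran from 9.58 through a median of 9.74 to 9.91 in untreated wildtype and from 8.70 through 9.01 to 9.19 under overload. In Mstn-/- they ran from 9.40 through 9.51 to 9.55 untreated and from 8.93 through 9.09 to 9.25 under overload. No overloaded array reached an untreated one in either genotype. Flt1 fell by 0.73 ± 0.07 in wildtype (1.65-fold, adjusted p = 1.2e-09) and fell by 0.42 ± 0.07 in Mstn-/- (1.34-fold, adjusted p = 1.2e-05). The fall was smaller in Mstn-/- by 0.30 ± 0.10 (adjusted p = 0.038), a call that ended when any 1 of 13 arrays was left out (adjusted p up to 0.074). These were overloaded Mstn-/- replicates 4, 5 and 6, untreated Mstn-/- replicates 1, 3, 4 and 6, overloaded wildtype replicates 3, 5 and 6 and untreated wildtype replicates 1, 4 and 5.

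Kdr, the main signalling receptor for VEGF-A, differed between the genotypes. In wildtype its untreated arrays ran from 8.68 through a median of 8.97 to 9.25 and its overloaded arrays from 8.71 through 8.95 to 9.16. These ranges lie over each other, with a difference of -0.01 ± 0.09 (95% interval -0.20 to 0.17, adjusted p = 0.90). In Mstn-/- the untreated arrays ran from 8.08 through 8.29 to 8.61 and the overloaded ones from 8.54 through 8.69 to 8.93, which overlap only at their edge. There it rose by 0.38 ± 0.09 (1.31-fold, adjusted p = 6.8e-04). The difference between the responses was 0.40 ± 0.13 (adjusted p = 0.031) and lost its call without any 1 of 6 arrays, overloaded Mstn-/- replicates 5 and 6, untreated Mstn-/- replicates 4 and 6, overloaded wildtype replicate 3 and untreated wildtype replicate 5 (adjusted p up to 0.062). Overloaded Mstn-/- arrays did not exceed the wildtype levels of Kdr: their highest value, 8.93, is below the median of untreated wildtype.

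The angiopoietin receptors separated as well. Tie1 ran from 8.68 through a median of 8.73 to 8.92 in untreated wildtype and from 9.04 through 9.12 to 9.16 under overload, and in Mstn-/- from 8.48 through 8.54 to 8.66 and from 8.996 through 9.179 to 9.299. Its groups were clear of each other in both genotypes. The rise was 0.35 ± 0.05 in wildtype (adjusted p = 1.9e-06, 1.27-fold) and 0.59 ± 0.05 in Mstn-/- (1.51-fold, adjusted p = 5.4e-10), larger in Mstn-/- by 0.24 ± 0.07 (adjusted p = 0.025, and 0.051 without untreated wildtype replicate 5). Tek, the receptor that binds angiopoietins, moved little. It ran from 8.62 through 8.81 to 8.97 and from 8.84 through 9.02 to 9.09 in wildtype, and from 8.85 through 9.02 to 9.29 and from 8.997 through 9.217 to 9.345 in Mstn-/-, with overlap each time. The wildtype rise of 0.19 ± 0.07 (1.14-fold) passed at an adjusted p of 0.024 and no longer did without any 1 of 5 arrays, overloaded wildtype replicates 2, 4 and 6 and untreated wildtype replicates 3 and 6 (adjusted p up to 0.073). In Mstn-/- the difference was 0.14 ± 0.07 (95% interval -0.01 to 0.29, adjusted p = 0.097). It passed with array weights (0.15, adjusted p = 0.045), without overloaded Mstn-/- replicate 1 (0.18, adjusted p = 0.036) and without untreated Mstn-/- replicate 2 (0.19, adjusted p = 0.029). The 2 responses of Tek differed by -0.05 (95% interval -0.26 to 0.16, adjusted p = 0.80).

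Vegfa, the chief growth factor of vessels, fell with load. In untreated wildtype its log2 intensity ran from 10.86 through a median of 11.07 to 11.21 and under overload from 9.89 through 10.26 to 10.41. In Mstn-/- it ran from 10.39 through 10.45 to 10.54 untreated and from 9.86 through 10.11 to 10.24 under overload. Each overloaded group lay wholly below its untreated group, and untreated Mstn-/- arrays lay between the untreated and the overloaded wildtype arrays apart from a small overlap with the latter. Vegfa fell by 0.84 ± 0.08 in wildtype (1.79-fold, adjusted p = 4.4e-10) and fell by 0.38 ± 0.08 in Mstn-/- (1.31-fold, adjusted p = 1.4e-04), which left a difference in response of 0.46 ± 0.11 (adjusted p = 0.0048). Vegfb, linked to fatty acid handling and to the heart and oxidative muscle, behaved alike. It ran from 10.68 through 10.73 to 10.82 and from 9.51 through 10.07 to 10.25 in wildtype, and from 10.33 through 10.38 to 10.47 and from 9.91 through 10.05 to 10.17 in Mstn-/-. The groups again stayed apart, and the lowest value, 9.51, belonged to overloaded wildtype replicate 3, the array that agreed least with its group. Vegfb fell by 0.75 ± 0.08 (1.68-fold, adjusted p = 6.4e-09) and fell by 0.35 ± 0.08 (1.27-fold, adjusted p = 5.9e-04), with a difference in response of 0.40 ± 0.11 (adjusted p = 0.015). Fibre genes moved beside these ligands: of 6 myofibre genes 4 fell in wildtype, Myh4 (fast myosin heavy chain) by 2.12-fold, while in Mstn-/- 4 fell and 1 rose. Of all tested genes 35.6% fell in wildtype and 33.5% in Mstn-/-. The part of the fibres in the Vegfa and Vegfb values was not tested.

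Angpt1, the stabilising ligand of Tek, had the widest spread between groups. Untreated wildtype arrays ran from 7.84 through a median of 8.02 to 8.21 and overloaded ones from 7.45 through 7.80 to 8.32, so overload widened the range without moving it clear of the controls. The difference was -0.18 ± 0.11 (95% interval -0.40 to 0.04, adjusted p = 0.14), and it passed without overloaded wildtype replicate 4 (-0.28, adjusted p = 0.012) and with quantile normalization (-0.24, adjusted p = 0.048). Untreated Mstn-/- arrays ran from 6.724 through 7.003 to 7.225 and overloaded ones from 7.44 through 7.53 to 7.78, with no overlap. In this genotype Angpt1 rose by 0.55 ± 0.11 (1.47-fold, adjusted p = 7.9e-05). The difference in response was 0.73 ± 0.15 (adjusted p = 0.0013), and no other of the 10 genes had a larger one. The overload responses of the 2 genotypes use separate arrays, but each comparison of genotypes shares its arrays with them.

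Without overload most of these genes were lower in Mstn-/- than in wildtype muscle. In untreated Mstn-/- against untreated wildtype muscle 7 of the 10 were lower and 1 higher, where 21.3% of all tested genes were called (11.1% higher, 10.2% lower), and 6 had groups that did not overlap, against 12.0%. Angpt1 was 2.02-fold lower (-1.01 ± 0.11, adjusted p = 1.4e-07), and 0.179% of tested genes had a lower difference. Kdr was 1.57-fold lower (-0.66 ± 0.09, adjusted p = 6.6e-06) and Vegfa 1.51-fold (-0.60 ± 0.08, adjusted p = 2.9e-06). For these 3 genes every Mstn-/- array lay below every wildtype array. Vegfb was 1.28-fold lower (-0.35 ± 0.08, adjusted p = 0.0022), Tie1 1.15-fold (-0.20 ± 0.05, adjusted p = 0.0064) and Flt1 1.17-fold (-0.23 ± 0.07, adjusted p = 0.022), again without overlap. Flt1 lost its call without untreated Mstn-/- replicate 1 or untreated wildtype replicate 5 (adjusted p up to 0.066). Esam was 1.14-fold lower with overlapping groups (adjusted p = 0.035), a call that ended without any 1 of 7 arrays, untreated Mstn-/- replicates 1, 3 and 4 and untreated wildtype replicates 2, 3, 4 and 5 (adjusted p up to 0.096), and when all arrays were shifted to the same median (adjusted p = 0.065). Tek went the other way: it was 1.19-fold higher in Mstn-/- (0.25 ± 0.07, adjusted p = 0.016, and 0.0501 without untreated Mstn-/- replicate 2). Pecam1 (-0.20 ± 0.08, 95% interval -0.37 to -0.03, adjusted p = 0.084) and Cdh5 (-0.15 ± 0.07, -0.30 to 0.01, adjusted p = 0.17) did not pass. The median over the 10 genes was -0.22, beside -0.01 over all tested genes.

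**Figure D3:**
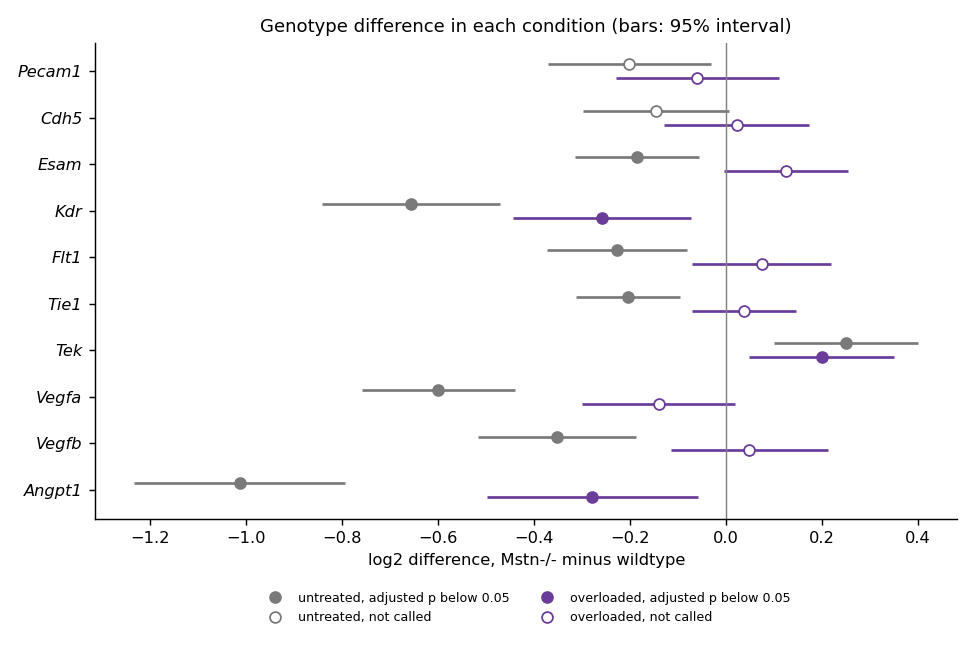
Log2 difference between Mstn-/- and wildtype muscle (horizontal axis) for each gene in untreated (grey) and overloaded (purple) muscle. Points are estimates from 6 arrays a group, bars their 95% interval, open points did not pass an adjusted p of 0.05. Angpt1, Kdr, Vegfa and Vegfb lie far to the left of 0 in untreated muscle, while overloaded values sit closer to 0, and Tek is to the right of 0 in both.

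Under overload the genotypes were closer. Of the 10 genes 2 were lower and 1 higher in Mstn-/-, where 36.5% of all tested genes were called (17.5% higher, 19.0% lower), and for none did the groups stay apart, against 15.5% of all tested genes. Angpt1 was 1.21-fold lower (-0.28 ± 0.11, adjusted p = 0.043), Kdr 1.20-fold lower (-0.26 ± 0.09, adjusted p = 0.027) and Tek 1.15-fold higher (0.20 ± 0.07, adjusted p = 0.035). All 3 calls rest on single arrays: none of the 10 genes was called without overloaded Mstn-/- replicate 3, and the same was true without replicate 2. Without overloaded Mstn-/- replicate 6 or overloaded wildtype replicate 1 there was 1. Singly, Kdr lost its call without overloaded Mstn-/- replicates 2 or 3 or wildtype replicates 4 or 6, Tek without Mstn-/- replicates 2, 3 or 6 or wildtype replicates 1, 3 or 5, and Angpt1 without Mstn-/- replicates 1, 2, 3, 4 or 6 or wildtype replicates 1, 2, 3 or 4. The other 7 genes had differences between -0.14 (Vegfa, 95% interval -0.30 to 0.02) and 0.12 (Esam, -0.004 to 0.25). For Vegfb the interval was -0.12 to 0.21 and for Flt1 -0.07 to 0.22. Setting the 4 group means in order, Angpt1, Kdr, Vegfa, Vegfb and Flt1 were highest in untreated wildtype. Kdr, Angpt1, Pecam1, Cdh5, Esam and Tie1 were lowest in untreated Mstn-/-. For Kdr the 2 wildtype groups did not differ beyond their spread.

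The difference between the 2 overload responses, tested as an interaction, passed for 7 of the 10 genes, where 17.4% of all tested genes were called. All 7 were in the direction of a higher value in Mstn-/- (8.92% of all tested genes, with 8.44% in the other direction): a larger rise for Esam and Tie1, a smaller fall for Vegfa, Vegfb and Flt1, and for Kdr and Angpt1 a rise in Mstn-/- where wildtype did not pass. Each of the 7 was also lower in Mstn-/- before overload, and the untreated arrays enter both values. The 3 that did not pass were Pecam1, Cdh5 and Tek. With untreated wildtype replicate 5 left out, 4 of the 7 remained past the threshold.

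Ratios within an array cancel whatever 2 genes share in that array, such as the amount of endothelial RNA where both come from that cell type. Probe sets differ in how they read, so only shifts of a ratio between groups carry meaning. The log2 ratio of Flt1 to Kdr ran from 0.66 to 0.90 in untreated wildtype and from -0.05 to 0.15 under overload, and from 0.93 to 1.43 and from 0.32 to 0.47 in Mstn-/-. The 4 ranges do not meet. The mean ratio was 1.64-fold lower with overload in wildtype and 1.75-fold lower in Mstn-/-, and it was 1.35-fold higher in Mstn-/- than in wildtype untreated and 1.26-fold higher under overload. The balance of receptor transcripts thus shifted from Flt1 towards Kdr under load in both genotypes. In wildtype Flt1 fell and Kdr did not pass, and in Mstn-/- Flt1 fell and Kdr rose. The ratio of Angpt1 to Tek was 2.40-fold lower in untreated Mstn-/- than in untreated wildtype, with ranges of -2.29 to -1.79 and -0.95 to -0.71. Its other 3 group comparisons overlapped. The ratio of Tek to Tie1 was 1.37-fold lower with overload in Mstn-/-, at -0.04 to 0.15 after 0.26 to 0.76, and overlapped between the wildtype groups. Vegfa against Vegfb overlapped in all 4 group comparisons, with mean shifts between -0.25 and -0.04.

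**Figure D4:**
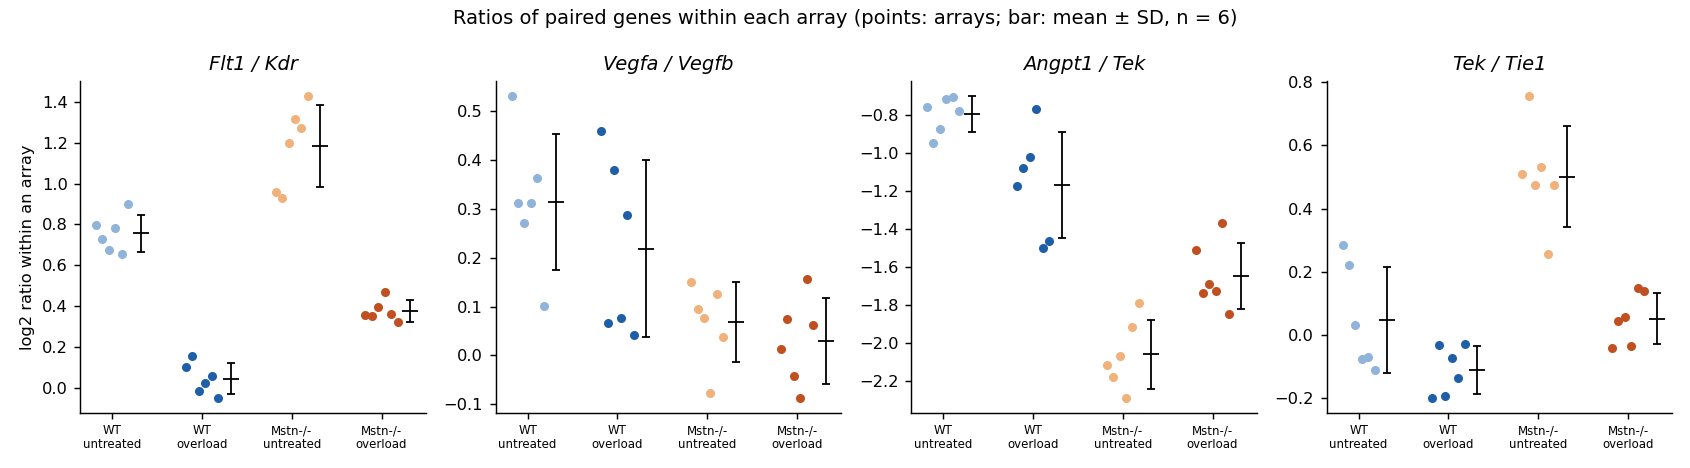
Log2 ratio of paired genes within an array (vertical axes) for 6 arrays per group (horizontal axis). Points are arrays and black bars the mean ± SD. The ratio of Flt1 to Kdr forms 4 separate ranges, the ratio of Angpt1 to Tek drops in untreated Mstn-/-, and the ratio of Vegfa to Vegfb overlaps between the groups compared.

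The other genes were also set against the mean of Pecam1, Cdh5 and Esam in the same array, taken as an endothelial reference. Pecam1, which rose more than Cdh5 and Esam in both genotypes, is also carried by platelets and some leukocytes. The part of those cells in the reference was not tested. This reference itself was 1.44-fold higher with overload in wildtype and 1.66-fold in Mstn-/-. A fall with overload is therefore larger on this scale than on its own by construction. A gene that held its level, or rose less than the reference, comes out lower on this scale. Much of Vegfa comes from fibres and Angpt1 from cells around the vessel, so for them the ratio does not correct for the amount of endothelial RNA. Relative to it Vegfa was 2.58-fold lower with overload in wildtype and 2.17-fold lower in Mstn-/-, Vegfb 2.41-fold and 2.11-fold, and Flt1 2.38-fold and 2.23-fold, each without overlap. Angpt1 was 1.63-fold lower in wildtype, without overlap, and 1.13-fold lower in Mstn-/-, with overlap, where Angpt1 itself had risen. Tek was 1.26-fold lower in wildtype and 1.504-fold lower in Mstn-/-, both without overlap. Tek itself had risen in wildtype and did not pass in Mstn-/-. Tie1 moved by 1.13-fold and 1.10-fold, with overlap, so among the receptors it kept closest to the junction genes. Kdr was 1.45-fold lower in wildtype, without overlap, and 1.27-fold lower in Mstn-/-, with overlap. Kdr itself did not pass in wildtype and had risen in Mstn-/-. In untreated muscle the lower Angpt1 (1.78-fold), Kdr (1.39-fold) and Vegfa (1.34-fold) of Mstn-/- were again free of overlap on this relative scale. Its higher Tek (1.34-fold) was free of overlap on this scale, though not on its own. Untreated Flt1 and Tie1, at 1.03-fold and 1.02-fold, overlapped.

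Other ligands and receptors of the same families mostly rose with load. Of 9 tested, 6 rose and none fell in wildtype, and 7 rose and none fell in Mstn-/-, with median differences of 0.32 and 0.61 beside -0.06 over all tested genes. Of all tested genes 30.3% rose and 35.6% fell in wildtype, and 27.1% rose and 33.5% fell in Mstn-/-. Nrp2, a co-receptor for VEGF ligands, rose 1.86-fold in wildtype and 1.94-fold in Mstn-/- (adjusted p = 7.0e-12 and 5.4e-12). Angpt2, the context-dependent antagonist of Angpt1, lay between 6.75 and 6.98 in untreated and between 7.45 and 7.65 in overloaded wildtype, and between 6.62 and 6.91 and between 7.33 and 7.78 in Mstn-/-. All overloaded arrays were above all untreated ones, a rise of 1.61-fold (adjusted p = 3.4e-09) and 1.63-fold (adjusted p = 4.8e-09), and the 2 responses of Angpt2 differed by 0.01 ± 0.10 (adjusted p = 0.95). The ligand that activates Tek and its antagonist thus had different responses in wildtype, where Angpt2 rose and Angpt1 did not pass. Pgf, a ligand of Flt1, rose 1.25-fold in wildtype and 1.68-fold in Mstn-/-, with a difference in response of 0.43 ± 0.11 (adjusted p = 0.0067). It was also 1.44-fold higher in Mstn-/- than in wildtype under overload (adjusted p = 6.5e-06). Vegfd, which is best known for lymphatic vessels, rose 1.28-fold and 1.56-fold. In untreated muscle 3 of the 9 were lower in Mstn-/- and none higher, where 10.2% of all tested genes were lower and 11.1% higher. They were the endothelial phosphatase Ptprb (1.24-fold), which acts on Tek, the co-receptor Nrp1 (1.23-fold) and the lymphatic VEGF receptor Flt4 (1.20-fold).

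Endothelial markers outside the 10 genes rose too. Of 25, 17 rose and 3 fell in wildtype and 23 rose and 1 fell in Mstn-/-, with medians of 0.49 and 0.62. Of all tested genes 30.3% rose in wildtype and 27.1% in Mstn-/-. The summed intensity of the 25 lay between 12702 and 14708 in untreated and between 18728 and 20921 in overloaded wildtype arrays. In Mstn-/- it lay between 11923 and 13204 and between 18128 and 20031. The largest rises in wildtype were those of the apelin receptor Aplnr (3.21-fold), the fenestral diaphragm protein Plvap (2.52-fold) and Cd34 (2.18-fold), a surface protein shared with progenitor and stromal cells. In Mstn-/- they were Mcam (2.40-fold), also found on pericytes, Aplnr (2.31-fold) and Plvap (2.11-fold). The 3 falls in wildtype were Gpihbp1 (1.24-fold), which carries lipoprotein lipase to the capillary lumen, the sphingosine phosphate receptor S1pr1 (1.16-fold) and the water channel Aqp1 (1.10-fold), and the fall in Mstn-/- was Rgcc (1.29-fold). Gpihbp1 and S1pr1 rose in Mstn-/-, by 1.19-fold and 1.37-fold, with differences in response of 0.56 ± 0.11 (adjusted p = 6.3e-04) and 0.66 ± 0.12 (adjusted p = 3.4e-04). In untreated muscle 9 of the 25 were lower in Mstn-/- and none higher, where 10.2% of all tested genes were lower and 11.1% higher. The transcription factor Sox7 (1.40-fold), the TGF-beta co-receptor Eng (1.31-fold) and the sialomucin Podxl (1.28-fold) led them. Under overload 3 were higher (Gpihbp1 1.43-fold, S1pr1 1.41-fold, Sox17 1.20-fold) and 7 lower, among them Erg (1.19-fold), Eng (1.17-fold) and Vwf (1.14-fold). This is near the share of all tested genes called there, 36.5% (17.5% higher, 19.0% lower).

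**Figure D5:**
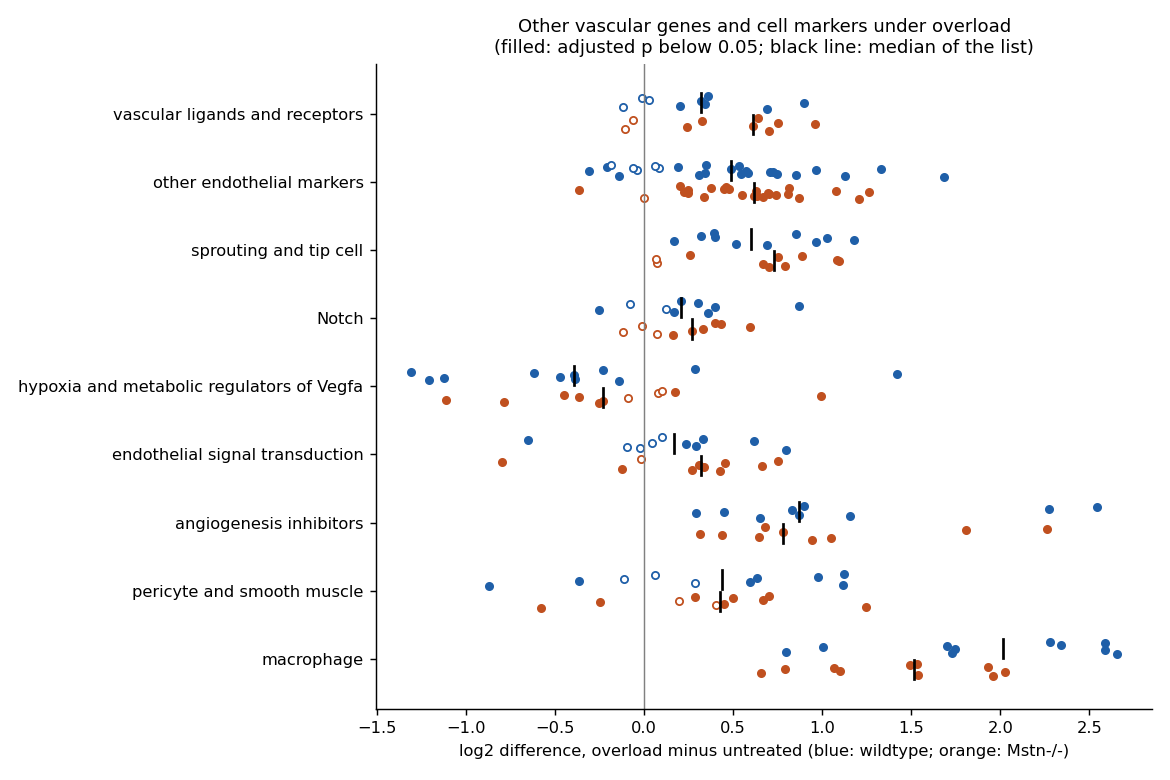
Log2 difference between overloaded and untreated muscle (horizontal axis) for genes of 9 groups outside the 10 main genes, in wildtype (blue) and Mstn-/- (orange). Points are genes, filled where the adjusted p was below 0.05, and black lines are the medians of a group. Macrophage markers and angiogenesis inhibitors lie wholly to the right of 0, endothelial markers mostly so, and the hypoxia and metabolic regulators lie on both sides.

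Genes of sprouting vessels and their Notch control were followed next. Of 10 genes known from sprouting and tip cells (several shared with the ligand group), all rose in wildtype and 8 in Mstn-/-, with medians of 0.60 and 0.73. Of all tested genes 30.3% and 27.1% rose. Igfbp3, which binds insulin-like growth factors, rose 2.26-fold and 2.13-fold, and Nid2, a basement membrane protein, 2.04-fold and 2.12-fold. The pericyte-recruiting factor Pdgfb was 1.36-fold higher in untreated Mstn-/- than in untreated wildtype, and its rise of 1.32-fold in wildtype had no counterpart past the threshold in Mstn-/- (0.07 ± 0.07), a difference of -0.33 ± 0.10 (adjusted p = 0.023). Of 9 Notch genes 6 rose and 1 fell in wildtype and 6 rose in Mstn-/-, where 65.9% and 60.6% of all tested genes were called. The ligand Jag1 rose 1.83-fold and 1.51-fold, and the fall was that of the target Hes1 (1.19-fold). Lymphatic markers rose in 4 of 4 cases in wildtype and 3 of 4 in Mstn-/-, among them the lymphatic transcription factor Prox1 (1.497-fold and 1.33-fold) and Pdpn (3.54-fold and 2.50-fold), which stromal cells carry too.

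Upstream of Vegfa, 11 genes of oxygen sensing and oxidative metabolism divided. In wildtype 2 rose and 9 fell, and in Mstn-/- 2 rose and 6 fell, where 65.9% and 60.6% of all tested genes were called. Hif1a, the hypoxia-inducible transcription factor subunit, rose 2.68-fold and 1.99-fold, in the opposite direction to Vegfa. The prolyl hydroxylases Egln1 and Egln3, which mark Hif1a protein for breakdown, fell 2.31-fold and 2.18-fold in wildtype and 1.72-fold and 2.16-fold in Mstn-/-. Ppargc1a, a coactivator of mitochondrial genes that also raises Vegfa in muscle, ran from 10.36 to 10.60 in untreated and from 8.63 to 9.64 in overloaded wildtype, a 2.47-fold fall (adjusted p = 3.4e-10). In Mstn-/- its ranges, 10.24 to 10.38 and 9.91 to 10.66, overlapped, with a difference of 0.08 ± 0.12. The 2 responses of Ppargc1a differed by 1.38 ± 0.17 (adjusted p = 4.4e-06). Epas1, the hypoxia-inducible factor subunit rich in endothelium, was 1.34-fold lower in untreated Mstn-/- than in wildtype (adjusted p = 2.4e-06), fell 1.39-fold with overload in wildtype and did not pass in Mstn-/- (-0.09 ± 0.05). Ppargc1b, a relative of Ppargc1a, differed by -0.59 ± 0.07 between the untreated genotypes (adjusted p = 2.0e-06). The part of these 11 genes in the Vegfa values was not tested.

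Genes that act after the receptors and genes that hold vessels back were followed as well. Of 10 genes of endothelial signal transduction 5 rose and 1 fell in wildtype, a share called below the 65.9% of all tested genes, and 7 rose and 2 fell in Mstn-/-, where 60.6% of all were called. Most of them are not specific to endothelium. Akt1, a kinase of survival and growth signalling, rose 1.74-fold and 1.34-fold, and Rasip1, an endothelial regulator of vessel lumen, 1.26-fold and 1.68-fold, while the kinase Prkca fell 1.57-fold and 1.74-fold. All 9 angiogenesis inhibitors tested rose in both genotypes, with medians of 0.87 and 0.78, where 30.3% and 27.1% of all tested genes rose. The thrombospondins Thbs2 (5.83-fold and 4.81-fold) and Thbs1 (4.83-fold and 3.51-fold) led them. Under overload 7 of the 9 were lower in Mstn-/- than in wildtype, against 19.0% of all tested genes. Of 10 pericyte and smooth muscle genes 5 rose and 2 fell in wildtype, a share called near the 65.9% of all tested genes. The pericyte receptor Pdgfrb rose 1.97-fold, and the channel subunits Abcc9 and Kcnj8 fell 1.83-fold and 1.29-fold. Abcc9 is also made by muscle fibres. In Mstn-/- 6 rose and 2 fell, where 60.6% of all tested genes were called, with the contractile actin Acta2 at 2.37-fold. All 5 proliferation genes tested rose in both genotypes, with median folds of 3.32 and 2.75, and fibro-adipogenic progenitor markers rose in 6 and 5 of 6 cases. Beside these, 30.3% of all tested genes rose in wildtype and 27.1% in Mstn-/-.

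Within groups the 10 genes also varied together from array to array. As a description over deviations of the 24 arrays from their group means, which share the authors' normalization, Cdh5 and Esam had a Pearson r of 0.71 and Pecam1 and Cdh5 of 0.70. Flt1 followed Vegfb (0.71), Kdr (0.70) and Vegfa (0.64), whereas Pecam1 had r near 0 with Flt1 (-0.05) and Vegfa (-0.04). By the same measure over all tested genes, Cdh5 was closest to the endothelial genes Adgrf5 (0.83), Cd93 (0.81) and Adgrl4 (0.79). Those closest to Esam were Grina (0.82), Ptprb (0.80) and Nck2 (0.78). The single closest gene was Gbp9 for Pecam1 (0.91), Acy3 for Kdr (0.76), Mrps15 for Flt1 (0.86), Emc7 for Tek (0.78) and Galnt15 for Tie1 (0.73). An endothelial neighbour in first place, as for Cdh5, was thus not the rule. Those closest to Vegfb were Slc25a3 (0.93), Nipsnap2 (0.93) and Fh1 (0.92). Of these, Slc25a3 and Fh1 encode a mitochondrial phosphate carrier and an enzyme of the citric acid cycle. Angpt1 was closest to Chm (0.87) and Vegfa to Dhx32 (0.80).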

How the data were processed

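Plantaris RNA of 24 mice was hybridised to 1 Affymetrix whole-transcript array per mouse, from 1000 ng of total RNA after removal of ribosomal RNA, per the labels' protocols. The deposited values are intensities per probe set on a linear scale (4.72 to 25588.9), made by the authors with RMA, which corrects background, normalizes across arrays and summarises probes, per the submitters' processing notes. RMA compresses differences of dim probe sets, and no version is given in the sources used here.

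From these intensities log2 values were taken without a pseudocount. Of 34760 probe sets, 21640 have 1 gene symbol in the platform annotation, 1321 several and 11799 none. Only the first were used. Each gene is read by the probe set with the highest mean, which gave 19937 genes, and a gene was tested when at least 1 group mean exceeded the 30th percentile of probe set means (intensity 98.9), which left 14499. Limma 3.58.1 in R 4.3.3 fitted 1 mean per group to all 24 arrays (20 residual degrees of freedom), with eBayes and Benjamini-Hochberg adjustment over all tested genes of each of 5 comparisons. Intervals are 95% and use the moderated 25.5 degrees of freedom, without adjustment. The fit was tested on simulated data. The replicates are biological per the labels, and no pair of arrays shared more than 0.0201% of its values.

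The 10 genes, the 14 further gene lists and the ratios were chosen with earlier results of these data known. Named are Mstn and the 10 genes, and of each list up to 3 called rises and 3 called falls per comparison, with members needed to name a small count. A gene so named in 1 comparison also has its values in others, and Epas1 was named after its values were seen. The 3 genes closest to each of the 10 by correlation were found by script, and some are named. No dates of surgery or scanning are in the sources used here, so batches could not be checked. Alternatives were quantile normalization, arrays shifted to the same median, no filter, a stricter filter (50th percentile), averaging a gene's probe sets, array weights, a trended and robust variance, the replicate number as a block, and each array left out in turn.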

Additional observations from a re-analysis of the deposited data

Results flagged for a closer look

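For 7 of the 10 genes the response to overload differed between the genotypes by limma's test of the difference itself (Mstn-/- response minus wildtype response, log2 scale, 6 arrays a group). Angpt1 had a difference of 0.73 (adjusted p = 0.0013), Vegfa of 0.46 (adjusted p = 0.0048), Vegfb of 0.40 (adjusted p = 0.015) and Kdr of 0.40 (adjusted p = 0.031). Esam had 0.31 (adjusted p = 0.016), Flt1 0.30 (adjusted p = 0.038) and Tie1 0.24 (adjusted p = 0.025). The untreated and overloaded arrays of both genotypes enter each value, and all 7 genes were also lower in untreated Mstn-/- than in untreated wildtype muscle. No array of a group stood apart from the other 5 for any of the 10 genes by Dixon's test at its 95% level (40 groups tested).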

How the results depend on the processing

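The values of the 10 genes in 5 comparisons were recomputed under 8 other settings and with each of the 24 arrays left out, which gave 1600 values: 1517 kept their direction and side of the threshold, 64 lost the call, 12 gained one and 7 changed sign, none of them called in either setting. The 7 were Cdh5 between overloaded genotypes (0.02 as reported, -0.0081 with quantile normalization, -0.029 to 0.058 with an array left out), Vegfb there (-0.049 to 0.098 with an array left out, the lowest without overloaded wildtype replicate 3) and Kdr with overload in wildtype (-0.071 to 0.043 with an array left out). The cause of these changes was not tested. Many of the 1600 values had little room to change, so the 1517 overstates how stable the results are. Each of the 10 genes was read by 1 probe set, so averaging probe sets left its difference as it was. Changing the filter or using a trended and robust variance could alter the adjusted p only. The same held when the array left out belonged to a group outside the comparison. The number of the 10 genes called under overload between genotypes, 3, was 1 with quantile normalization and 0 to 3 with an array left out. For the difference in response it was 7, and 4 to 7 with an array left out (4 without untreated wildtype replicate 5). Overload in wildtype gave 7 to 9 under these alternatives, overload in Mstn-/- 9 to 10, and the untreated genotype comparison 6 to 10. The other settings that ended a call were a shift of arrays to the same median for Tek with overload in wildtype (adjusted p = 0.053), no filter for the difference in response of Flt1 (adjusted p = 0.053), and quantile normalization for that of Tie1 (adjusted p = 0.056) and for Tek between overloaded genotypes (adjusted p = 0.0503). Angpt1 between overloaded genotypes lost its call without any 1 of 9 arrays and under 5 settings (adjusted p up to 0.127). In untreated Mstn-/- Pecam1 passed with quantile normalization (-0.22, adjusted p = 0.043) and with array weights (-0.26, adjusted p = 0.011), as did Cdh5 with array weights (-0.19, adjusted p = 0.026). Without overloaded wildtype replicate 3 Vegfa was lower in Mstn-/- under overload (-0.21, adjusted p = 0.026), and without replicate 4 Esam was higher (0.17, adjusted p = 0.027). Signals near the filter level limit Angpt1 most.

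Same-numbered arrays did not deviate together on average (36 pairs, mean r 0.016, r from -0.41 to 0.36, 9 above 0.1). Different-numbered pairs had a mean r of -0.0027, and 4 of 24 arrays correlated best with an array of their own number. The numbers thus gave no sign of paired samples, though this cannot exclude a pairing. With the replicate block the 10 genes gave 8, 9, 8, 2 and 7 calls in the 5 comparisons in place of 8, 9, 8, 3 and 7, and the call it ended was Angpt1 between overloaded genotypes (-0.28, adjusted p = 0.062).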
